A study of Mus musculus with 8 samples.

Results

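The 215 most abundant autosomal long noncoding RNA (lncRNA) genes of mouse epididymal white adipose tissue were followed in Ccdc92 knockout (KO) and wild type (WT) animals. A gene was taken when its GENCODE M21 type was lincRNA, antisense, processed_transcript or bidirectional_promoter_lncRNA, it lay on an autosome and its deposited normalized count averaged at least 100 over the 8 libraries. These were 215 of 24821 rows in the table and 215 of 3440 rows of those types, and 1 named gene is left out by the rule. The members were chosen by the mean level, so the levels are given as a description, with no test. There were 4 KO libraries and 4 WT libraries, all from male mice on the C57BL/6 background. KO animals lacked Ccdc92, a gene for a coiled-coil protein, and the WT animals were their littermates at the same age. All of them ate a diet with 60% of its calories as fat, 20% as protein and 20% as carbohydrate for 14 weeks. Epididymal fat is the gonadal depot of male mice and holds adipocytes, macrophages, vessels, mesothelium and nearby tissue of the reproductive tract. Whether every library is from its own animal is not stated, so the tests see only the spread among these libraries, and that spread may be technical.

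Long noncoding RNAs are transcripts that are not translated into a known protein. Some stay in the nucleus and build structures there, as Neat1 does for paraspeckles, and some silence neighbouring genes on the same chromosome, as Kcnq1ot1 and Airn do in imprinted domains. Others are mainly carriers: small nucleolar RNAs (snoRNAs), which guide the modification of ribosomal RNA, and microRNAs are cut out of their introns or exons. Many more start beside a coding gene or run across it on the opposite strand, and most of these have no known role.

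Recovered reads per library ran from 23681088 to 33817478, and the member genes took 0.428% to 0.594% of them in KO and 0.448% to 0.477% in WT. The targeted gene had 8, 6, 9 and 4 reads in KO libraries 1 to 4, against 59, 71, 114 and 106 reads in WT libraries 1 to 4, lower in every KO library. KO library 3 stood apart with a normalized count of 1761183 for the haemoglobin gene Hba-a1, against 31115 to 44063 in the other KO libraries. WT library 4 stood apart from the other WT libraries in Akr1b7, a gene of the male reproductive tract, with 80636 normalized counts, against 188 to 212 in WT libraries 1 to 3. Other epididymis markers went both ways there. Serpina1f (7052) and Defb42 (1440) were highest of WT in that library, and Crisp1 (26575), Spink8 (3938), Defb43 (408) and Adam7 (0.936) were lowest. Lcn8 was at or near 0 in every WT library. Hba-a1 was also raised in WT library 4, at 139301, against 18001 to 19951 in WT libraries 1 to 3. Adipocyte markers were higher in KO in 11 of 12 genes, and macrophage markers were lower in 12 of 12, with summed normalized counts of 51292 to 77171 in KO and 146867 to 305507 in WT. Mast cell markers were lower in 6 of 6 genes, T cell markers in 5 of 7, epididymis markers in 6 of 7 tested, and endothelial markers were higher in 3 of 6. The adipocyte list summed to 1169655 to 1608857 in KO, against 245417 to 520607 in WT. Epididymis markers summed to 9.70 to 786 in KO, against 52779 to 120050.3 in WT, and Defb43 was at 0 in every KO library. The part of these cell types in the results was not tested, and in bulk tissue fewer cells of a type and less RNA per cell cannot be told apart.

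Abundant lncRNA genes were more often higher than lower in KO fat. Of the 214 members tested, 90 rose and 25 fell in limma's test over 17798 genes, at a p under 0.05 after Benjamini-Hochberg adjustment. That is 42.1% higher and 11.7% lower, where 20.2% of all genes tested were higher and 21.5% lower. Protein-coding genes with a mean of at least 100 were higher in 23.6% and lower in 23.5%, and the less abundant autosomal lncRNA genes, with a mean under 100, were higher in 21.1% and lower in 9.17%. The mean over all libraries admits genes through the group where they are high: 50 members reached a mean of 100 only in KO and 11 only in WT. Among the 154 members with a mean of at least 100 in both groups, 51 rose (33.1%) and 16 fell (10.4%), against 24% higher and 21.8% lower of the protein-coding genes that met the same condition. The median log2 fold change was 0.21 in those 154 members, 0.32 in all members tested and -0.01 over all genes tested. It was 0.30 in the less abundant autosomal lncRNA genes, near that of all members, and 0.595 there after quantile normalization. Quantile normalization moved the median of all genes to 0.10, that of the members to 0.48, the calls over all genes to 4593 higher and 3257 lower and those of the members to 106 and 22, where the deposited scaling gave 3592 and 3831 over all genes. Without KO library 3 and WT library 4 together, 66 members were higher and 21 lower.

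**Figure D1:**
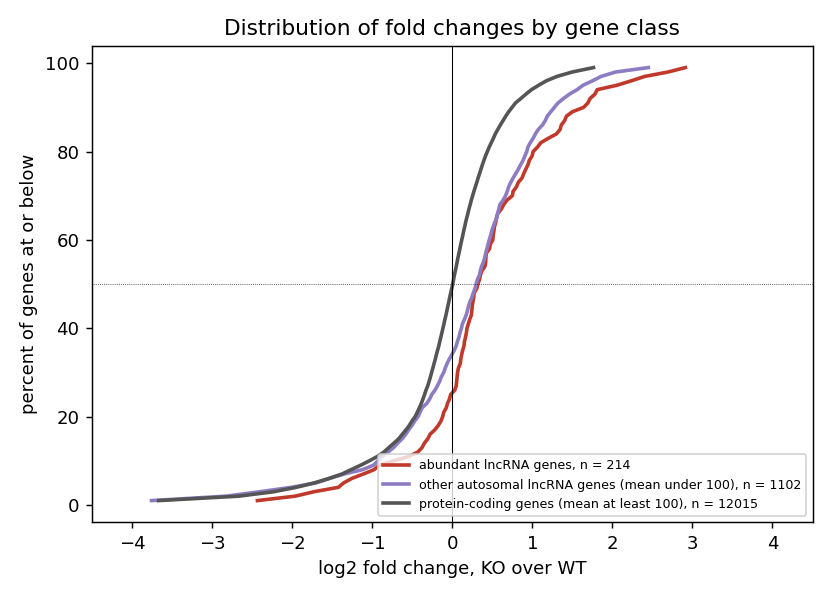
Percent of genes (y axis) at or below each log2 fold change, KO over WT (x axis), from percentile 1 to 99, for the abundant lncRNA genes, the other autosomal lncRNA genes and the protein-coding genes with a mean of at least 100. The curve of the abundant lncRNA genes lies to the right of the protein-coding curve and crosses 50% at 0.32, where all genes tested have a median of -0.01. The curve of the other autosomal lncRNA genes crosses 50% at 0.30.

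Rises outnumbered falls in each of the 4 gene types, where 20.2% of all genes tested were higher and 21.5% lower. The counts here are over all members tested and were not limited to those with a mean of at least 100 in both groups. They include the 50 members that reached this mean only in KO, of which 39 rose and limma called 0 as lower. They also include the 11 that reached it only in WT, of which 9 of 10 tested fell. Antisense genes, which run across another gene on the opposite strand, rose in 30 of 57 and fell in 2, with a median of 0.57. Genes that start from a promoter shared with a coding gene rose in 8 of 15, and limma called 0 as lower (0 also at an unadjusted p under 0.05, and 0 in edgeR and DESeq2). In the intergenic class (lincRNA) 32 of 83 rose and 14 fell. The processed transcripts, a mixed class, rose in 20 of 59 and fell in 9. Exons of 105 members shared no base with an exon of another gene, and of these 41 rose and 16 fell. RefSeq lists 20 of the members as protein-coding and 142 as lncRNA, and without those 20 the counts were 83 higher and 20 lower of 194 tested. The whole set spanned 19 autosomes, with exons of 168 to 93147 bases (median 2981), and 41 members had a single merged exon.

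The largest rise was in Gm45470 (ENSMUSG00000109674.1, chr8:27228686-27240332, plus strand, GRCm38), an antisense gene whose exons share 11% of their bases with Adrb3, the gene of the adipocyte beta-3 adrenergic receptor. It had normalized counts of 1074, 1196, 1914 and 3050.1 in KO libraries 1 to 4, against 67.9, 51.9, 47.3 and 59.9 in WT libraries 1 to 4, or 4.85 on the log2 scale (SE 0.31; adjusted p = 0.000146, limma). The groups were far apart, with KO library 4 the highest. Adrb3 rose too, by 4.51 on the log2 scale, and reads from the bases that the genes share cannot be told apart. Next came 2010016I18Rik (ENSMUSG00000091575.2, chr3:106481982-106485913, minus strand), which had 584, 572, 1628 and 2109 in KO, against 79.8, 76.0, 73.3 and 89.9 in WT, or 3.69 on the log2 scale (SE 0.42; adjusted p = 0.000628, limma). Its KO libraries fell into a lower pair and a higher pair, all above every WT library. The lincRNA Gm454 had 920.4, 779, 1465 and 1594 in KO and 105, 234, 126 and 158 in WT, or 2.93 on the log2 scale (SE 0.30; adjusted p = 0.000478, limma). AC087871.1, a short lincRNA, was the most abundant of the large rises per length: it had 1963, 1839, 2594 and 2808 in KO and 291, 545, 368 and 607 in WT, or 2.38 on the log2 scale (SE 0.25; adjusted p = 0.000485, limma). In both genes the lowest KO library was above the highest WT library.

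2610016A17Rik starts 158 bases from Dmrt2, a transcription factor gene that runs away from it on the other strand. The lncRNA had 507, 589.6, 687 and 672 in KO and 61.5, 101, 86.3 and 103 in WT, or 2.81 on the log2 scale (SE 0.19; adjusted p = 0.000146, limma). Its KO values were close together and its groups did not overlap. Dmrt2 itself had 1457, 2156, 1839 and 2637 in KO and 338, 786, 581 and 597 in WT, a log2 fold change of 1.84 (adjusted p = 0.00139, limma). Of the 14 largest rises, B430010I23Rik (2.72), Gm36827 (2.62), Smkr-ps (2.42), B430119L08Rik (2.27), 4930458D05Rik (2.20), Gm15551 (2.14) and 9630013D21Rik (2.01) rose at least 4-fold, and Gm34934 (1.85) and C920006O11Rik (1.80) by less. Values in brackets are log2 fold changes, KO over WT. In all, 45 members rose at least 2-fold and 12 at least 4-fold, and 15 fell at least 2-fold and 5 at least 4-fold. These counts draw also on the 50 members with a mean of at least 100 only in KO (median 1.06) and the 11 only in WT (median -1.53). Percentiles 5 and 95 of the log2 fold change were -1.36 and 2.06 in the members. In protein-coding genes with a mean of at least 100 they were -1.72 and 1.08. Counts by size of change were not made over all genes tested. With or without a call, a 2-fold rise lay between percentiles 79 and 80 of the members and between 94 and 95 of those protein-coding genes. A 2-fold fall lay between percentiles 7 and 8 of the members and between 10 and 11 of those protein-coding genes.

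**Figure D2:**
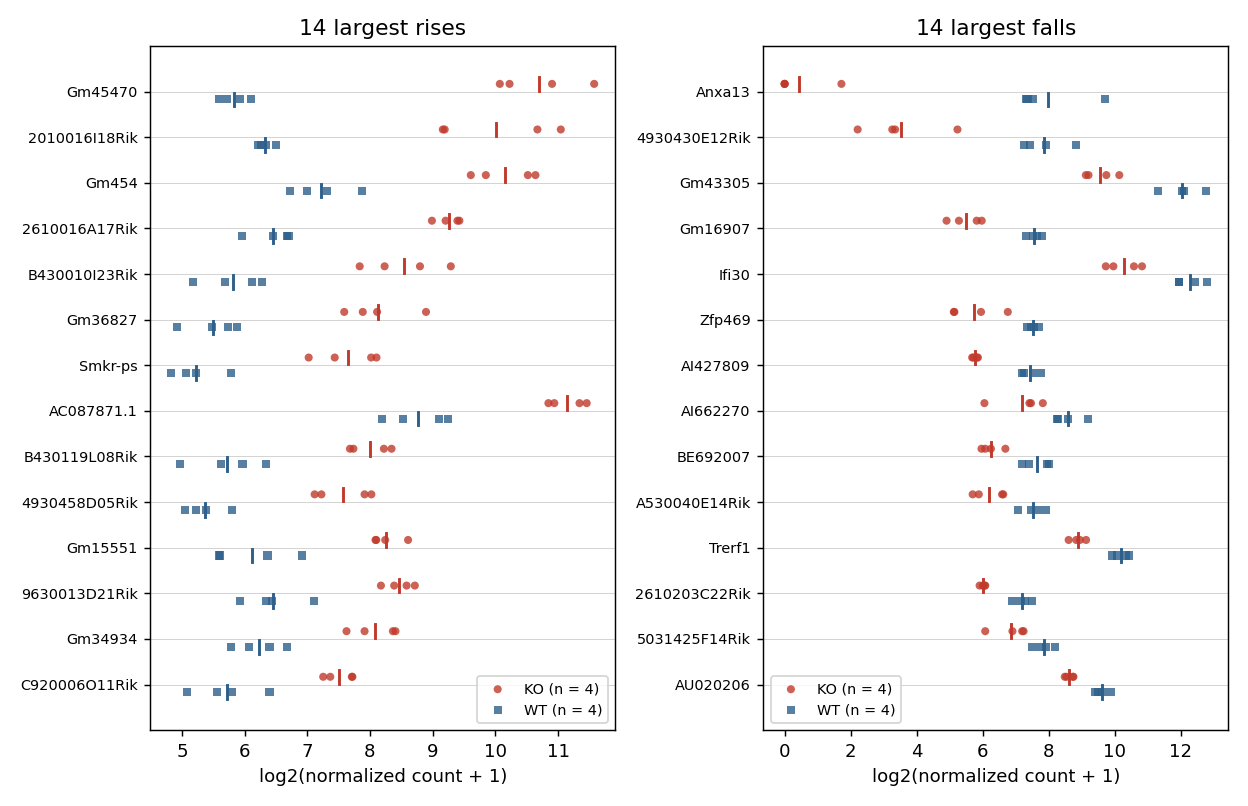
Level of the 14 members with the largest rises (left) and the 14 with the largest falls (right) in each library, as log2(normalized count + 1) on the x axis. Circles are KO libraries, squares WT libraries and vertical ticks group means. KO and WT values do not overlap in any of the 28 genes, as the choice of these genes requires, and Anxa13 is at or near 0 in KO.

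The promoters of 2 large rises and of 1 large fall are shown because their lncRNAs moved most among members with a single start in the RefSeq promoters, in which 138 of 215 members had at least 1. Gm454, with a rise between those 2, has 5 such starts and is not shown. Each runs from 250 bases before the RefSeq start to 50 bases from it (RefSeq, GRCm38.p6). Capitals mark matches, on either strand, to AGGTCA (the half-site of nuclear receptors), GAGGAA (the core bound by PU.1 in myeloid cells), TATAAA (the TATA box) or CCAAT (the CCAAT box). 2010016I18Rik lies at chr3:106485864-106486163, minus strand, 2610016A17Rik at chr19:25672190-25672489, minus strand and Gm43305 at chr14:54297439-54297738, minus strand.
2010016I18Rik: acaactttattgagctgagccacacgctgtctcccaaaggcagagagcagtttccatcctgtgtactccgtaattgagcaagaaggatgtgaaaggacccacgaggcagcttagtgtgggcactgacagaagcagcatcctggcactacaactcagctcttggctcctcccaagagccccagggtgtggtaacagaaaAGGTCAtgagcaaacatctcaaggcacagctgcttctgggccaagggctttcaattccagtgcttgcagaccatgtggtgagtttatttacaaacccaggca
2610016A17Rik: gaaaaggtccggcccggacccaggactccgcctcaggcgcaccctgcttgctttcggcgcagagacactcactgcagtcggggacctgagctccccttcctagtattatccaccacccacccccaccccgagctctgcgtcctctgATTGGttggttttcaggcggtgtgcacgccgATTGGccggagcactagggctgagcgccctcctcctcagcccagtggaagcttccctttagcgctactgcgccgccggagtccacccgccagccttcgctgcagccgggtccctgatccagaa
Gm43305: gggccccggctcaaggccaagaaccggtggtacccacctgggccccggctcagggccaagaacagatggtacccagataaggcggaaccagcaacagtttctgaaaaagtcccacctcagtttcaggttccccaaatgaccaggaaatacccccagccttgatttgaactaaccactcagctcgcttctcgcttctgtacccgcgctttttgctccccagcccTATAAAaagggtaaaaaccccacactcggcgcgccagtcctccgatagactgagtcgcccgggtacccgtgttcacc
AGGTCA occurred at 14 of 62 genes that rose, 4 of 15 that fell and 8 of 61 that did not pass, and at 18.1% of all 27025 genes with such a window. GAGGAA occurred at 24 of 62, 9 of 15 and 19 of 61, and at 31.3% of all genes. TATAAA occurred at 7 of 62, 4 of 15 and 8 of 61, and at 15.7% of all genes, and CCAAT at 33 of 62, 6 of 15 and 25 of 61, and at 41.1% of all genes. A match is a description of the letters and not a bound site.

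In some pairs a member and a coding gene with which it shares exonic bases both passed. The 4 pairs given first, of 84 such combinations, were chosen after their values were seen. Across Gm45470, Adrb3 had 14417, 12101, 22693 and 31194 in KO and 1024, 682, 682 and 958 in WT, a log2 change of 4.51 (SE 0.30; adjusted p = 0.000146, limma). 4732471J01Rik, which shares 21.2% of its exonic bases with the hormone-sensitive lipase gene Lipe, had 157, 159, 171 and 256 in KO and 46.8, 71.2, 45.5 and 64.6 in WT, or 1.68 on the log2 scale (SE 0.23; adjusted p = 0.000955, limma). Lipe rose by 1.81 (SE 0.25; adjusted p = 0.00108, limma) on the log2 scale, to 53476 to 66141 in KO, against 10869 to 24100.5 in WT. The antisense gene 4930458D05Rik shares 34.4% with Gpat3, an enzyme of triglyceride synthesis. It had 138, 149, 259 and 240.1 in KO and 32.1, 54.8, 40.8 and 36.5 in WT, or 2.20 on the log2 scale (SE 0.27; adjusted p = 0.000688, limma), and Gpat3 rose by 1.66 (SE 0.26; adjusted p = 0.00182, limma). On the falling side, BE692007 shares 20.8% with Ms4a6c, a member of the myeloid MS4A family. BE692007 had 102, 61.5, 75.2 and 66.7 in KO and 245, 169, 145 and 257 in WT, or -1.39 on the log2 scale (SE 0.24; adjusted p = 0.00266, limma), and Ms4a6c had a log2 change of -1.46 (SE 0.28; adjusted p = 0.00414, limma). In each of these genes the groups did not overlap.

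**Figure D3:**
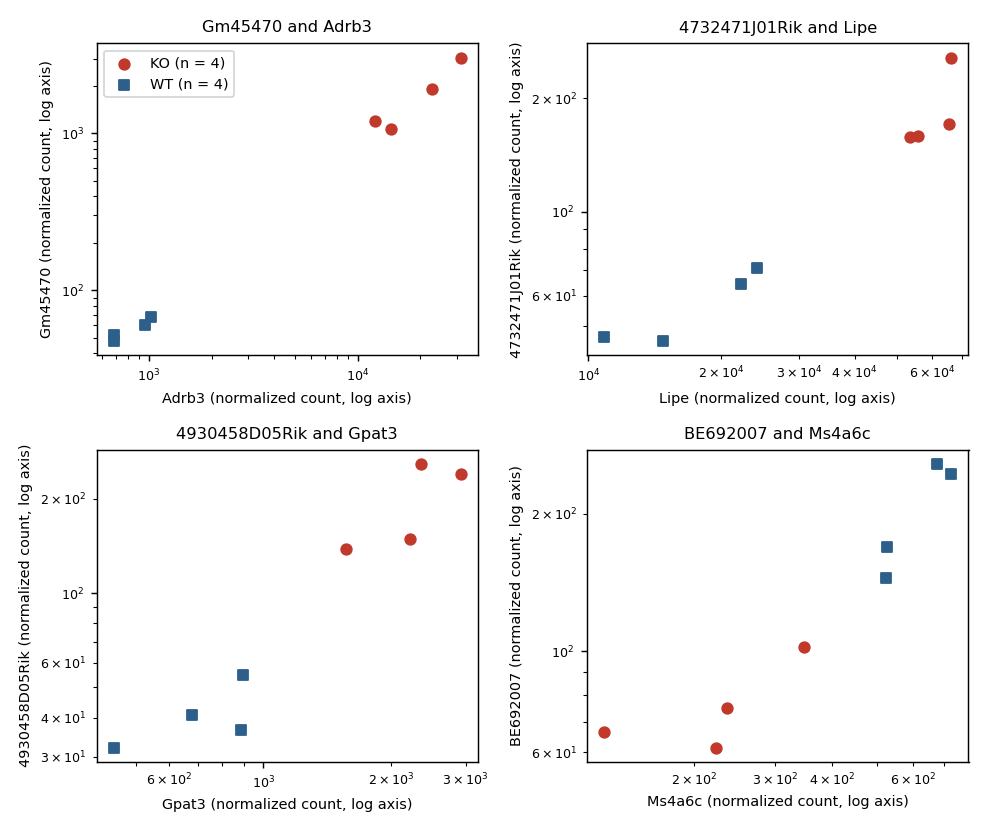
Normalized counts (log axes) of 4 antisense or overlapping lncRNA genes (y axis) against the coding gene whose exons they share (x axis), 1 point per library, circles for KO and squares for WT. In the panels with Adrb3, Lipe and Gpat3 all KO points lie above and to the right of the WT points, and in the panel with Ms4a6c below and to the left.

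Not every overlapping gene moved with its lncRNA. In all, 77 members shared exonic bases with a tested coding gene, in 84 combinations, and in 24 of these both genes passed the test, 19 in the same direction and 5 in opposite directions. Gm4876 rose by 1.70 while Tes, across which it runs, had a log2 fold change of -1.30 (limma adjusted p = 0.000673). 2610203C22Rik fell by 1.19 while Adhfe1, an enzyme of hydroxyacid metabolism, rose by 1.80 (limma adjusted p = 0.000352). Gm26588 had 0.22 (limma adjusted p = 0.471) on the log2 scale, while the monoglyceride lipase gene Mgll, with which it shares 3.77% of its exonic bases, rose by 1.07 (limma adjusted p = 0.00739). Gm4876 and 2610203C22Rik share 4.71% and 12.3% of their exonic bases with Tes and Adhfe1, and these 3 members were named after their values were seen. How the counting treated strand and shared reads is not given in the sources used here, so reads of overlapping genes cannot be told apart.

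The largest fall was in Anxa13, listed as a processed transcript in GENCODE and as the annexin A13 gene, protein-coding, in RefSeq. It had 2.30, 0, 0 and 0 in KO, against 159, 163, 185 and 841 in WT. Only 2 reads were counted over the 4 KO libraries, so the KO mean was 0.171% of the WT mean, with a 95% exact Poisson interval of 0.0193% to 0.575% that covers counting error only. The fitted log2 fold change of -7.55 (limma adjusted p = 0.000284) depends on the pseudocount of 1. WT library 4, which also held the most Akr1b7, was the highest. Gm42794, an antisense gene with 0, 0, 1 and 0 reads in KO and 871, 1581, 1519 and 0 in WT, was the member that did not pass the filter on low values and was not tested. Both genes were at or near 0 in KO. The epididymis markers in KO ranged from Defb43, at 0 in every library, to Adam7, at 41.4, 273, 387 and 0 normalized counts, and KO library 3 held the most of 6 of the 8. Gm42794 had 0 reads in WT library 4, where Adam7 had 0.936 normalized counts, against 7805 to 19829 in the other WT libraries. Most other epididymis markers were present in WT library 4. Crisp1 had 26575 normalized counts there, Serpina1f 7052, Spink8 3938, Defb42 1440, Defb43 408 and Akr1b7 80636, while Lcn8 was at 0.

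4930430E12Rik, an antisense gene near Sdcbp, had 9.19, 36.7, 8.60 and 3.64 in KO and 457, 152, 241 and 173 in WT, or -4.35 on the log2 scale (SE 0.63; adjusted p = 0.0013, limma). Gm43305 was the most abundant of the falls that RefSeq lists as lncRNA, with 1129.6, 859.7, 591 and 559 in KO and 2537, 6925, 4184 and 4369.8 in WT, or -2.49 on the log2 scale (SE 0.32; adjusted p = 0.000911, limma). Its WT libraries ranged widely among themselves and still lay above every KO library. Ifi30, a lysosomal thiol reductase of antigen-presenting cells and protein-coding in RefSeq, had 1536, 1820.2, 998 and 850.1 in KO and 7187, 3930.4, 5506 and 3977 in WT, or -2.01 on the log2 scale (SE 0.28; adjusted p = 0.00123, limma). AI427809, named Mexis in RefSeq, is known from mouse macrophages as a lncRNA that lies near the cholesterol transporter gene Abca1 and is induced by the sterol receptor LXR. It had 51.7, 50.4, 55.9 and 57 in KO and 146, 151, 217 and 184 in WT, or -1.66 on the log2 scale (SE 0.17; adjusted p = 0.000415, limma). KO values were within a few counts of each other, far below the lowest WT library. AU020206 had 359, 372, 425 and 431 in KO and 793, 683, 718 and 953 in WT, or -0.98 on the log2 scale (SE 0.12; adjusted p = 0.000741, limma). Gm16907 (-2.07), Zfp469 (-1.77), A530040E14Rik (-1.34), Trerf1 (-1.31), 2610203C22Rik (-1.19) and 5031425F14Rik (-1.0) also fell. Genes named here without a RefSeq type may be among the 20 members that RefSeq lists as protein-coding. Without those, 20 members were lower. AI662270 fell by 1.39 on the log2 scale, a call lost without WT library 1 (-1.19, limma adjusted p = 0.0523).

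Among the lncRNAs of nuclear structure, Neat1 and Kcnq1ot1 rose and the other 4 of the list did not pass. Neat1, the scaffold of paraspeckles and the most abundant member, had 29789.9, 30831, 31812 and 42315 in KO and 20483, 20922, 21118 and 16975 in WT, or 0.75 on the log2 scale (SE 0.14; adjusted p = 0.00389, limma). KO library 4 was the highest and WT library 4 the lowest, and the groups did not overlap. Malat1, an abundant RNA of nuclear speckles and a neighbour of Neat1, had 13464, 13513, 19175 and 21046 in KO and 18070.3, 11975, 12171 and 13998 in WT, or 0.25 on the log2 scale (SE 0.20; adjusted p = 0.336, limma). Its groups overlapped. Per kilobase of exons Malat1 averaged 2406 normalized counts in KO and 2013 in WT, against 1622 in KO and 957 in WT for Neat1. Genes of 17 paraspeckle proteins went both ways: 2 were higher, with Hnrnph3 at 0.64 and Taf15 at 0.45, and 2 were lower, with Smarca4 at -0.35 and Sfpq at -0.33. Their median log2 fold change was -0.10, where all genes tested had -0.01. Tug1 had 1580.0, 1453, 1742 and 1808 in KO and 1624, 1430.0, 1498 and 1496 in WT, or 0.12 on the log2 scale (SE 0.09; adjusted p = 0.3, limma).

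Short stretches of 2 abundant lncRNAs are shown because they are the parts through which these RNAs are known to act. 2900097C17Rik is Norad, which holds back the RNA-binding proteins Pumilio 1 and 2 by offering them many copies of their site. Its longest GENCODE transcript (4915 bases, GRCm38) held 11 matches to TGTANATA on the transcript strand, of which the first 4 are given with the match in capitals. Over all members, 48 of 215 longest transcripts (22.3%) held a match, and the median was 0.
Norad site 1: tagaagtcctgTGTATATAatatgaaaaag
Norad site 2: agtaaacatgcTGTAAATAcctttttgtta
Norad site 3: tggcttttcttTGTACATAgtgtatgtaaa
Norad site 4: actgactgctgTGTATATAgtggacaacag
1700020I14Rik is Oip5os1, also called Cyrano, which is known to trigger the decay of miR-7. Its longest transcript (8300 bases) held 2 matches to the miR-7 seed, and 22.3% of members held at least 1. The match in the stretch that starts at base 2934 is given after miR-7a-5p, with the seed and its complement in capitals.
mmu-miR-7a-5p: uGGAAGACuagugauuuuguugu
Oip5os1 site: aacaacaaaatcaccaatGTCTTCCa
Norad had 6081, 6354, 6337 and 6502 in KO and 8342, 7466, 8315 and 6725 in WT, or -0.28 on the log2 scale (SE 0.09; adjusted p = 0.0361, limma). Every KO library was below every WT library, but the call was lost when any library but WT library 4 was left out, with limma adjusted p values up to 0.109. Oip5os1 had 2898, 3181, 3369.8 and 3399 in KO and 2835, 2968, 2858 and 3002 in WT, or 0.14 on the log2 scale (SE 0.07; adjusted p = 0.168, limma). Its groups overlapped.

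Of the 12 members in the list of snoRNA hosts, 3 rose and limma called 0 as lower (0 also at an unadjusted p under 0.05, and 0 in edgeR and DESeq2). The share that rose is near the 20.2% of all genes tested that were higher. Over all 17 tested genes of the list, members or not, 5 were higher and 1 was lower. Snhg18 had 350.5, 349.5, 447 and 391 in KO and 208, 235, 236 and 277 in WT, or 0.68 on the log2 scale (SE 0.12; adjusted p = 0.00334, limma). Snhg5 had 298, 303, 385 and 308 in KO and 198, 263, 198 and 228 in WT, or 0.54 on the log2 scale (SE 0.14; adjusted p = 0.0125, limma). Snhg12 had 236, 232, 272 and 313 in KO and 153, 213, 186 and 170.4 in WT, or 0.54 on the log2 scale (SE 0.15; adjusted p = 0.0175, limma). The groups did not overlap in these 3 genes. Without KO library 3 and WT library 4 together, Snhg5 (0.47, limma adjusted p = 0.0514) and Snhg12 (0.50, limma adjusted p = 0.0854) missed the threshold. Gas5, the most abundant of the list and also studied as a lncRNA that binds the glucocorticoid receptor, had 1592, 1548, 1659 and 1409 in KO and 1463, 1509, 1414 and 1191 in WT, or 0.16 on the log2 scale (SE 0.09; adjusted p = 0.205, limma). The remaining hosts lay between -0.14 (Zfas1) and 0.37 (Snhg20) on the log2 scale and did not pass, though Snhg20 passed without KO library 2 (0.48, limma adjusted p = 0.0496) and when quantiles were equalized (0.51, limma adjusted p = 0.0407). The median of the 12 was 0.14. Over all 19 members that hold an annotated snoRNA gene, 5 rose, 1 fell and the median was 0.13, against 0.32 for all members, and this share too is near 20.2%. The fall was 1110038B12Rik, named after its values were seen, with 180.4, 199, 188 and 186 in KO and 295, 256, 251 and 211 in WT, or -0.42 on the log2 scale (SE 0.12; adjusted p = 0.0249, limma).

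The start sites of snoRNA hosts are shown because many of these genes, like those of ribosomal proteins, are known to begin at a run of pyrimidines, the 5′ terminal oligopyrimidine tract that ties translation to growth signals. Each line gives 20 bases before the RefSeq start and 25 bases from it (RefSeq, GRCm38.p6), with the longest run of C and T within 3 bases of the start in capitals. Snhg12 lies at chr4:132308658-132308702, plus strand, Snhg8 at chr3:123508312-123508356, minus strand, Gas5 at chr1:161035146-161035190, plus strand, 2410006H16Rik at chr11:62602857-62602901, plus strand, 1110038B12Rik at chr17:34952444-34952488, minus strand and Snhg5 at chr9:88522873-88522917, minus strand.
Snhg12: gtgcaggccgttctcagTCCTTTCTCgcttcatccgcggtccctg
Snhg8: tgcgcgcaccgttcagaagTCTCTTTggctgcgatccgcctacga
Gas5: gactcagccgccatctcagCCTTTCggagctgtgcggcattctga
2410006H16Rik: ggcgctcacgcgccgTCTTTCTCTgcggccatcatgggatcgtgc
1110038B12Rik: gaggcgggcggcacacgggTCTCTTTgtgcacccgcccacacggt
Snhg5: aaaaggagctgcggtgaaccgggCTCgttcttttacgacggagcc
A run of at least 5 pyrimidines stood at a start of 9 of 17 snoRNA-bearing members (52.9%), 37 of 121 other members (30.6%) and 29.5% of all genes with a window. Hosts with such a run moved both ways or not at all: Snhg12 rose, 1110038B12Rik fell, and Snhg8 had -0.12 and 2410006H16Rik -0.20 on the log2 scale without passing, although 2410006H16Rik passed without KO library 3 (-0.37, limma adjusted p = 0.0309). Among 24 coding genes known for such tracts, 6 fell and limma called 0 as higher (0 also at an unadjusted p under 0.05, and 0 in edgeR and DESeq2). The share that fell is near the 21.5% of all genes tested that were lower. The falls included Rack1 (-0.46), Rps3 (-0.44) and Fau (-0.42), and the median of the list was -0.16. Proteins of the snoRNA particles rose in 1 gene, Znhit3 (0.33), and fell in 1, Fbl (-0.35), of 16. In nonsense-mediated decay, which is known to degrade many spliced snoRNA hosts, 2 of 14 genes rose, Upf3a (0.53) and Upf2 (0.21), and 3 fell, Smg9 (-0.55), Dhx34 (-0.35) and Smg8 (-0.32), where all genes tested had 20.2% higher and 21.5% lower.

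**Figure D4:**
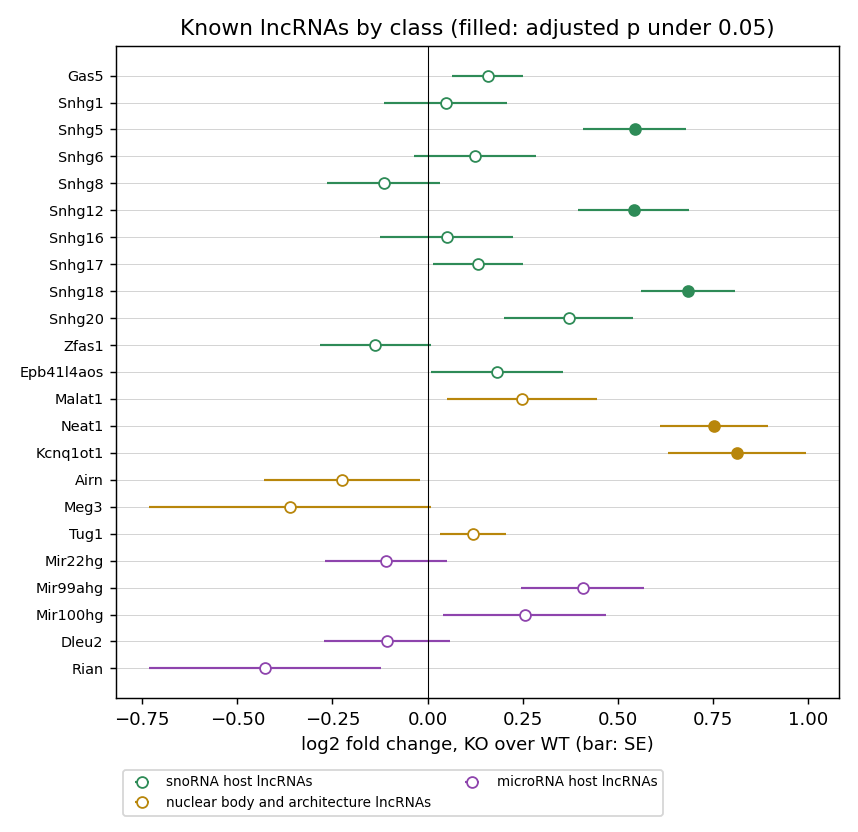
Log2 fold change, KO over WT (x axis), with its standard error, of members from the lists of snoRNA hosts, nuclear lncRNAs, microRNA hosts and imprinted lncRNAs, each gene shown once under the first list that holds it. Filled points, with a limma p under 0.05 after adjustment, are Snhg5, Snhg12, Snhg18, Neat1 and Kcnq1ot1.

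The mature microRNAs carried by abundant hosts are shown because they group the hosts by seed, bases 2 to 8 in capitals (RefSeq, GRCm38.p6). Mir99ahg carries let-7c, miR-99a and miR-125b. Of the microRNAs shown, 3110039I08Rik, named Mir100hg in RefSeq, carries miR-100 and miR-125b. The list of hosts also gave let-7a for Mir100hg, and its sequence is not shown. Among the sequences shown, the 2 hosts share the seeds of miR-99a and miR-100 and of miR-125b.
mmu-miR-99a-5p: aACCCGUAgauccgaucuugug
mmu-miR-100-5p: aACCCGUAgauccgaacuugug
mmu-miR-125b-5p: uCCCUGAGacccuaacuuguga
mmu-let-7c-5p: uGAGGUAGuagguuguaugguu
mmu-let-7d-5p: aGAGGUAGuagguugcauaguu
mmu-miR-15a-5p: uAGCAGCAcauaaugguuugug
mmu-miR-16-5p: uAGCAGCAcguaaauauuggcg
mmu-miR-22-3p: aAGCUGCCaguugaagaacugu
mmu-miR-101a-3p: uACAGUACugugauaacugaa
Of the others, 6720427I07Rik carries let-7d, Dleu2 the pair miR-15a and miR-16, Mir22hg miR-22 and E130102H24Rik miR-101a. The libraries measure the host RNA, and the level of a mature microRNA was not measured.

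Of the 12 tested genes in the list of microRNA hosts, 2 were lower and limma called 0 as higher. The 2 were Mir142hg (-0.89, limma adjusted p = 0.0207) and Pvt1 (-0.64, limma adjusted p = 0.0141), which are not members. The 6 members in the list did not pass: limma, edgeR and DESeq2 each called 0 of 6. At an unadjusted p under 0.05 limma had 1, Mir99ahg. It had 159.7, 158, 175 and 193 in KO and 112, 154, 107 and 149 in WT, or 0.41 on the log2 scale (SE 0.16; adjusted p = 0.0719, limma). Its groups did not overlap, and it passed when quantiles were equalized (0.61, limma adjusted p = 0.0195), with library weights (0.50, limma adjusted p = 0.0162) and without WT library 2 (0.49, limma adjusted p = 0.0489). Mir100hg had 310.3, 344, 257 and 524 in KO and 276, 331, 242 and 319 in WT, or 0.26 on the log2 scale (SE 0.21; adjusted p = 0.364, limma). Dleu2 had 203, 188, 198 and 243 in KO and 287, 174, 234 and 211 in WT, or -0.11 on the log2 scale (SE 0.17; adjusted p = 0.634, limma). The groups of both overlapped. Mir22hg, whose microRNA is abundant in muscle and fat, had 858, 1080.1, 716 and 919 in KO and 1157, 941, 1009 and 752 in WT, or -0.11 on the log2 scale (SE 0.16; adjusted p = 0.608, limma). E130102H24Rik, outside the list, had 0.28 (SE 0.27; adjusted p = 0.42, limma) on the log2 scale. Over the 15 members with an annotated microRNA gene, 2 rose (13.3%) and 1 fell (6.67%), with a median of 0.24. Of all genes tested, 20.2% were higher and 21.5% lower.

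Imprinted lncRNAs are made from the chromosome of a single parent. Kcnq1ot1, which is made from the paternal chromosome and silences genes of its domain there, had 229.8, 173, 260.1 and 284 in KO and 128, 143, 109.5 and 152 in WT, or 0.81 on the log2 scale (SE 0.18; adjusted p = 0.00789, limma). Its groups did not overlap. The coding gene Kcnq1, within which it lies, had a log2 change of -1.11 (SE 0.23; adjusted p = 0.0059, limma). Other listed coding genes of this domain did not fall with it: Cd81 rose (0.40, limma adjusted p = 0.0285). Slc22a18 (0.62, limma adjusted p = 0.077), Cdkn1c (0.25, limma adjusted p = 0.358) and Tssc4 (-0.13, limma adjusted p = 0.237) did not pass. A link between Kcnq1ot1 and these genes was not tested. Meg3, the leading lncRNA of the Dlk1-Dio3 domain, had 669.9, 1107, 539.6 and 1596 in KO and 1887, 856, 1140.0 and 947 in WT, or -0.36 on the log2 scale (SE 0.37; adjusted p = 0.459, limma). Rian, transcribed downstream of Meg3, had 436, 626, 361 and 582 in KO and 1128, 414, 703 and 570.2 in WT, or -0.43 on the log2 scale (SE 0.30; adjusted p = 0.289, limma). In both the libraries of a group ranged widely and the groups overlapped. Airn, which silences Igf2r on the paternal chromosome in mice, had 95.4, 106, 81.7 and 155 in KO and 131, 138, 113 and 118 in WT, or -0.23 on the log2 scale (SE 0.20; adjusted p = 0.402, limma). Igf2r, the receptor that carries mannose 6-phosphate proteins to lysosomes, had 4024, 5326, 3697 and 4729 in KO and 16877, 9346, 12750.2 and 9513 in WT, a log2 fold change of -1.42 (adjusted p = 0.00139, limma). Of 19 tested coding genes of these and other imprinted domains with a lncRNA, 5 rose, among them Slc22a3 (1.25) and Snrpn (1.07), and 6 fell, among them Dio3 (-1.58) and Begain (-1.13). Over all genes tested 20.2% were higher and 21.5% lower.

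Ctcflos, antisense to the CTCF paralogue gene Ctcfl, had 2201, 2856, 1926 and 2628 in KO and 598, 1194, 812 and 1070.2 in WT, or 1.42 on the log2 scale (SE 0.22; adjusted p = 0.00185, limma). Ctcfl rose too, by 1.80 (SE 0.22; adjusted p = 0.000718, limma), and the 2 genes share 3.35% of the exonic bases of Ctcflos. Dubr, known in mouse myoblasts as a lncRNA that helps differentiation, fell: it had 334, 333, 330.0 and 299.5 in KO and 598, 450.1, 509.6 and 401 in WT, or -0.58 on the log2 scale (SE 0.13; adjusted p = 0.00758, limma). Both genes separated the groups. Hoxd3os1, antisense in the HoxD cluster, had 121, 83.7, 135 and 142 in KO and 77.1, 150.0, 115 and 90.8 in WT, or 0.17 on the log2 scale (SE 0.25; adjusted p = 0.613, limma). AW112010, an RNA of activated immune cells, had 399.9, 464, 663 and 376 in KO and 417, 424, 408 and 579.6 in WT, or 0.04 on the log2 scale (SE 0.19; adjusted p = 0.894, limma). The groups of these 2 genes overlapped, and all 12 macrophage markers were lower in KO. Gm26917, which overlaps ribosomal RNA sequence, had 1982, 1513, 4483 and 1759.7 in KO and 1722, 2384, 2233 and 1966 in WT, with KO library 3 apart from the rest.

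Whether a lncRNA changed by another amount than its neighbour was tested on the difference of their log2 values in each library. The neighbour was the tested coding gene with the nearest start within 100 kb, which 186 members had. The difference passed towards KO in 51 pairs (27.4%) and towards WT in 11 (5.91%), against 20.0% and 5.64% of all 1188 lncRNA pairs. Members were chosen by a mean that 50 of them reached only in KO, and their neighbours were not chosen by it. The shares were not computed for members with that mean in both groups, so no conclusion is drawn from their excess towards KO. In 46 pairs both genes passed the gene test, 37 in the same direction and 9 in opposite directions. Spearman's rho between the log2 fold changes of lncRNA and neighbour, across pairs that share the same 8 libraries, was 0.307 over all, 0.484 over 42 divergent pairs, 0.417 over 56 pairs that overlap on opposite strands, 0.203 over 81 other pairs and -0.393 over 7 that overlap on the same strand. No such value was computed for genes that are not neighbours. The 42 divergent pairs held 12 differences towards KO, and limma called 0 towards WT (1 at an unadjusted p under 0.05).

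Among the pairs that passed, the largest fitted difference towards KO was between Gm29371 and Alppl2, an alkaline phosphatase gene, at 7.70 (SE 0.85; adjusted p = 0.000792, limma) on the log2 scale. Here the lncRNA did not pass, at 0.65 (SE 0.47; adjusted p = 0.291, limma). Alppl2 had 0 in all 4 KO libraries, against 98.2, 289, 278 and 37.5 in WT, so it was at least 219-fold lower in KO, counted against a floor of 3 reads over the KO group. The fitted difference therefore depends on the pseudocount, and it was 4.76 (limma adjusted p = 0.00478) with a pseudocount of 8. The next were Gm45470 with Got1l1 at 4.99 (SE 0.68; adjusted p = 0.0012, limma), B430010I23Rik with Pdgfrl at 3.52 (SE 0.50; adjusted p = 0.0012, limma) and 9330159M07Rik with Bcl2a1a at 2.66 (SE 0.46; adjusted p = 0.00274, limma). Got1l1 has the nearest start to Gm45470, but the gene that shares its exonic bases is Adrb3, which rose by 4.51 on the log2 scale. Smkr-ps and Nrf1, a regulator of mitochondrial genes, differed by 2.56 (SE 0.32; adjusted p = 0.000807, limma), and E130102H24Rik and Ak4 by 2.39 (SE 0.42; adjusted p = 0.00308, limma). In the divergent pair 2610016A17Rik and Dmrt2 both genes rose, with a difference of 0.97 (SE 0.22; adjusted p = 0.0108, limma) towards the lncRNA. Gm34934 starts 97 bases from Samd4, and it rose while Samd4 had a log2 fold change of 0.02, a difference of 1.83 (SE 0.28; adjusted p = 0.00141, limma).

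Towards WT, Anxa13 and Fam91a1 differed by -7.05 (SE 0.55; adjusted p = 8.64e-05, limma) and, with Anxa13 at 2 reads over the KO libraries, this fitted value depends on the pseudocount, at -4.44 (limma adjusted p = 8.51e-05) with a pseudocount of 8. 4930430E12Rik and Sdcbp, the syntenin gene, differed by -3.29 (SE 0.51; adjusted p = 0.00141, limma). Ifi30 fell while Mpv17l2, a mitochondrial membrane protein gene, rose, a difference of -2.69 (SE 0.38; adjusted p = 0.0012, limma). Gm43305 and Abhd4 differed by -2.50 (SE 0.38; adjusted p = 0.00141, limma), and Zfp469 and Zfpm1 by -1.65 (SE 0.40; adjusted p = 0.0138, limma). Snhg17 lies 14058 bases from Snhg11, another snoRNA host that GENCODE M21 types as protein-coding. Snhg17 had 307, 302, 342 and 379.6 in KO and 352, 271, 291 and 299 in WT, with overlapping groups, while Snhg11 had 1790.3, 1671, 1948 and 2231 in KO and 291, 615, 332 and 404 in WT, a log2 change of 2.27 (SE 0.22; adjusted p = 0.000379, limma). The pair differed by -2.14 (SE 0.30; adjusted p = 0.0012, limma). Fewer pairs passed towards KO without KO library 3 (33), without WT library 1 (33), without WT library 3 (32) or without KO library 3 and WT library 4 together (26), and 7 passed towards WT without WT library 3 and without KO library 3 and WT library 4 together.

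**Figure D5:**
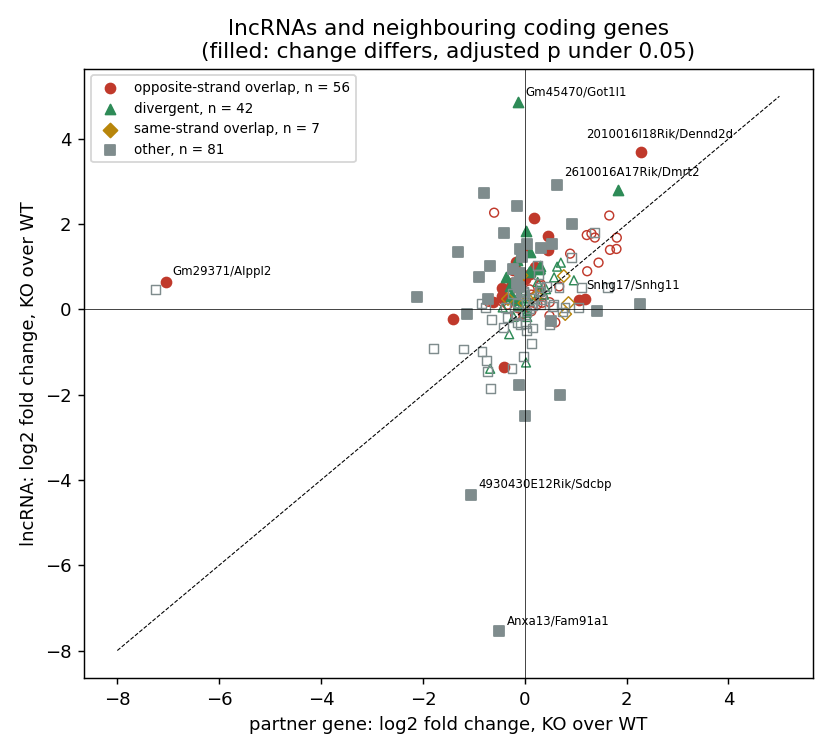
Log2 fold change, KO over WT, of 186 members (y axis) against that of the nearest coding gene (x axis), by arrangement of the pair, with the dashed line at equal change. Filled symbols mark pairs whose difference passed, 51 of them above the line and 11 below it. Positions of the pairs with Alppl2 and Anxa13, at or near 0 in KO, depend on the pseudocount.

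Per kilobase of exons, the 12 most abundant members spanned lincRNAs, processed transcripts and small RNAs. Gm10076, listed as a pseudogene in RefSeq, led with 7326 normalized counts per kilobase in KO and 7397 in WT, and it changed by -0.03 (SE 0.13; adjusted p = 0.864, limma) on the log2 scale. Ifi30 and AC087871.1 followed, with 1326 and 5045 in KO, against 5250 and 992 in WT, so that their order was reversed between the groups. Bc1, a short RNA known from rodent neurons, had 516, 519, 767 and 313 normalized counts in KO and 278, 441, 363 and 540.3 in WT, or 0.35 on the log2 scale (SE 0.29; adjusted p = 0.351, limma). 1810058I24Rik, protein-coding in RefSeq, had 2360.3, 2714, 3006 and 1939 in KO and 1583, 1733, 1720.1 and 1863 in WT, or 0.52 on the log2 scale (SE 0.13; adjusted p = 0.014, limma). Cct6a, the gene of a chaperonin subunit and also protein-coding in RefSeq, had 0.18 (SE 0.08; adjusted p = 0.0948, limma) on the log2 scale, and it passed in DESeq2 (0.18, adjusted p = 0.0371), with library weights (0.22, limma adjusted p = 0.0115) and without WT library 1 (0.23, limma adjusted p = 0.0471). 1700047G03Rik varied most among these 12: it had 2777, 3902, 734 and 329.9 in KO and 834, 1679, 1171 and 1556 in WT, with KO libraries 1 and 2 above and KO libraries 3 and 4 below the WT range.

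Of the 215 members, 22 averaged at least 1000 normalized counts, 88 between 200 and 1000 and 105 between 100 and 200. Just inside the limit lay Epb41l4aos (100.6), 6720427I07Rik (100.7) and Gm16576 (100.9), and just outside it Gm13652 (99.96), Hotairm1 (98.95) and Gm4316 (98.4). The coefficient of variation between libraries of a group had a median of 18.9% in KO and 16.2% in WT over the members, against 15.1% in KO and 15.4% in WT over all genes tested. Of the 99 members tested that did not pass, 62 had an absolute log2 fold change under 0.25.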

How the data were processed

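The authors deposited 1 normalized count (a signal) per gene and library. The tools STAR 2.7.7 and DESeq2 and the build GRCm38.p6 appear, with no role, per the submitters' processing notes. The sources used here do not give the read counter, its strand setting or its annotation. Libraries were made with Illumina's TruSeq RNA Sample Prep Kit, per the labels' protocols. In each library the nonzero deposited values were, in 100.0% of cases, a whole number times a fixed step (tolerance 0.01 of a read), and dividing by it gave whole reads, 23681088 to 33817478 per library. Types, coordinates and exons come from GENCODE M21 (GRCm38), which matched 24802 of 24821 rows. RefSeq names and biotypes were taken by symbol, then synonym, where the positions overlapped, for 165 of 215 members.

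Genes with at least 10 normalized counts in at least 4 of 8 libraries entered limma 3.58.1 (R 4.3.3) on log2(normalized count + 1), with genotype as the single term and trended, robust moderation of the variance. P-values were adjusted by Benjamini-Hochberg over all genes, with a threshold of 0.05. Fold changes, KO over WT, are on that scale, which understates changes of low genes. Differences between a lncRNA and its neighbour used the same fit over 1188 pairs. As alternatives, edgeR 4.0.16 and DESeq2 1.42.0 were run on the recovered reads, and other pseudocounts, filters, scalings, weights and left-out libraries were tried. The fits were tested on simulated data. No 2 libraries of a group were alike within sampling noise. Members, lists and tests were chosen with earlier results of these data known. Genes named are list members, the 12 highest per kilobase, the 14 largest rises and falls without overlap, the 6 pairs with the largest difference each way, the genes next to the limit, those with a library far from its group, and others marked in the text. Some genes are not reported here.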

Additional observations from a re-analysis of the deposited data

Results flagged for a closer look

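A library was picked out when its gap to the nearest of its group, divided by the range of the group, was above Dixon's 95% critical value for 4 samples. Of 430 groups (215 members in KO and in WT), 26 were picked out, in 23 members, and chance picks out about 5% of groups. All values are normalized counts, with the range of the other 3 libraries of the group in brackets. KO library 1 was the highest of its group for Anxa13 at 2.30 (others at 0), Gm42031 at 587 (others 104 to 180.3) and Gm7292 at 809 (others 717 to 726). KO library 2 was the highest of its group for 4930430E12Rik at 36.7 (others 3.64 to 9.19) and C4a at 2446 (others 1305 to 1488). KO library 2 was the lowest of its group for 2410022M11Rik at 159 (others 228 to 233) and Gm46430 at 429 (others 531 to 539). KO library 3 was the highest of its group for 2210408F21Rik at 230.0 (others 204 to 207), Gm26917 at 4483 (others 1513 to 1982), Gm42794 at 1.07 (others at 0) and Snhg5 at 385 (others 298 to 308). KO library 4 was the highest of its group for 1300002E11Rik at 416 (others 309 to 326), 4732471J01Rik at 256 (others 157 to 171), 4933439C10Rik at 277 (others 136 to 156) and Neat1 at 42315 (others 29789.9 to 31812). KO library 4 was the lowest of its group for Dubr at 299.5 (others 330.0 to 334). WT library 1 was the lowest of its group for Gm26880 at 249 (others 511 to 557). WT library 2 was the highest of its group for B430219N15Rik at 166 (others 95.5 to 102), F730043M19Rik at 174 (others 95.5 to 108) and Gm20300 at 245 (others 178 to 188). WT library 3 was the lowest of its group for Gm26782 at 330.5 (others 368 to 372). WT library 4 was the highest of its group for AW112010 at 579.6 (others 408 to 424) and Anxa13 at 841 (others 159 to 185). WT library 4 was the lowest of its group for 4933439C10Rik at 101 (others 183 to 197), Gm4673 at 136 (others 153 to 156) and Neat1 at 16975 (others 20483 to 21118). For Anxa13 in KO library 1 and Gm42794 in KO library 3 the high value is 2 reads and 1 read. Neat1 and 4933439C10Rik were picked out on the side that widens the distance between the groups, high in KO library 4 and low in WT library 4. KO library 3 also held the most haemoglobin RNA and WT library 4 the most Akr1b7, and their part in these values was not tested.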

How the results depend on the processing

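Under pseudocount 8, no filter, edgeR, DESeq2, quantile normalization, TMM scaling, library weights and each left-out library, the members numbered 81 to 106 higher and 20 to 27 lower, against 90 and 25 as reported, and no named member changed direction. The replicate block gave 81 higher and 20 lower. Deviations from the group mean in same-numbered KO and WT libraries had correlations of -0.143, 0.051, -0.041 and 0.172 for numbers 1 to 4. WT library 4 alone was the best match of its own number. These 4 values show no pairing by number, but they are too few to exclude one. Raising the required mean to 200 left 42 higher and 14 lower, and lowering it to 50 gave 158 and 46, since the number of members changes. Members with under 10% shared exonic bases gave 63 higher, against 41 with 0%, for the same reason. Pairs that differed towards KO numbered 32 to 50 with 1 library left out, 26 without KO library 3 and WT library 4 together and 31 with neighbours within 20 kb. Those towards WT numbered 7 to 11 with 1 library left out, 7 without KO library 3 and WT library 4 together, 7 within 20 kb and 18 with pseudocount 8. Smaller designs have fewer libraries or pairs, and for pseudocount 8 the cause was not tested. Over all genes, library weights gave 4730 higher and 5037 lower, and leaving out 1 library 2710 to 3410 higher and 2931 to 3669 lower. Norad lost its call with the replicate block (limma adjusted p = 0.0902) as with most left-out libraries. DESeq2 gave no adjusted p for Anxa13. Depth limits the KO values of Anxa13 (2 reads in all) and Gm42794 (1 read).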

Other observations

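Some known lncRNAs lie outside the rule by type or level. The 4 given first are a selection, named with their values known. Peg13, an imprinted lncRNA of brain and other tissues that GENCODE M21 types as sense_intronic, had 2827, 2712, 3189 and 3785 normalized counts in KO and 1589, 1744, 1746 and 2218 in WT, a log2 change of 0.78 (SE 0.14; adjusted p = 0.00286, limma). Snhg14, the long host of the snoRNAs of the Snrpn domain, had 88.5, 87.2, 82.8 and 97.0 normalized counts in KO and 31.2, 45.2, 40.8 and 44.0 in WT, a log2 change of 1.13 (SE 0.18; adjusted p = 0.00175, limma). Hotairm1, a lncRNA of the HoxA cluster, had 133, 117, 149 and 129.8 normalized counts in KO and 73.4, 72.1, 53.8 and 62.7 in WT, a log2 change of 1.01 (SE 0.16; adjusted p = 0.00183, limma). Snhg15 fell, with 63.2, 75.2, 67.7 and 40.0 normalized counts in KO and 106, 111, 99.3 and 84.3 in WT, a log2 change of -0.72 (SE 0.22; adjusted p = 0.0289, limma). In all 4 genes the groups did not overlap. Other listed lncRNAs outside the rule passed as well. Pantr1 (-5.60), Hoxb5os (-1.15), Mir142hg (-0.89) and Pvt1 (-0.64) fell, and Snhg11 (2.27), Hoxb3os (0.89) and Hoxaas3 (0.79) rose. Pantr1 was at or near 0 in KO, so its fitted value depends on the pseudocount.

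Gm27177, an antisense gene at Entpd4b and Loxl2, had 8.04, 296, 199 and 179 in KO and 19.3, 201, 126 and 219 in WT. Library 1 was the lowest in both groups, and the genotypes differed by -0.06 (SE 1.19; adjusted p = 0.973, limma) on the log2 scale. Gm42031 had 587, 180.3, 104 and 115 in KO and 391.7, 632, 451 and 662 in WT, or -1.46 on the log2 scale (SE 0.51; adjusted p = 0.048, limma), with overlapping groups. Both were chosen after their values were seen.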
